A study of Arabidopsis thaliana with 12 samples.

Results

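The strongest shared early rises are the probe sets whose mean log2 level was at least 2.5 above the control mean, which is a 5.66-fold difference, with each of cellobiose, chitin and OGs in seedling roots. The differences were means over 3 arrays against means over 3 arrays. Of 22746 probe sets that are not Affymetrix controls, 104 met the rule. The rule then set aside 11 genes by name (WRKY53, WRKY22, DLAH, CCR2, CCOAMT, CML37, AT3G01830, AT5G39670, AT5G14700, AT1G14550 and AT1G07160), and 93 probe sets remained. The annotation pairs 44 of the 93 with 1 gene, which is 47.3%, against 59.4% of all probe sets. Another 1 is paired with several genes and 48 have no gene in the tables used here, so those 49 probe sets appear by their ID. STZ was the only gene of the 44 with a symbol other than its locus identifier.

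The study treated Arabidopsis thaliana Col-0 seedlings aged 7 days for 25 min and read RNA from their roots, which had grown through a nylon mesh away from the shoots. The groups were cellobiose, the glucose disaccharide released from cellulose; chitin, called chito-oligomers in the design text, which are N-acetylglucosamine chains of fungal walls; OGs (oligogalacturonides), galacturonic acid chains of pectin; and a control with no elicitor. Each group had 3 biological replicates, numbered 1 to 3 in the labels, so there were 12 ATH1 arrays, which read each gene with a set of short probes. The doses are not stated in the sources that were used. RNA samples had been screened by qRT-PCR for a WRKY30 response before they were hybridized, and a further time point of the study was not analysed here.

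Plant cells sense wall fragments with receptors at the plasma membrane. Within minutes of binding, calcium enters the cell, reactive oxygen forms at the surface and protein kinases are switched on. A wave of immediate early transcripts follows, which includes transcription factors, ubiquitin ligases, secreted peptide signals, membrane proteins and oxidative enzymes, and much of this wave is shared between elicitors of different chemistry.

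The arrays had median log2 levels between 6.50 and 6.60, and the correlation between replicates of a group was 0.986 to 0.996 over all probe sets. Of 9 root markers, 3 had a named probe set: PYK10 averaged 13.52, 13.49 and 13.47 with cellobiose, chitin and OGs and 13.44 in controls, and the root hair expansins EXPA7 and EXPA18 lay between 9.24 and 9.85 in every group. Of 8 shoot markers, only RCA had a named probe set, and it averaged 10.14 with cellobiose, 10.84 with chitin and 10.71 with OGs, against 11.11 in controls. RCA, the activase of the carbon-fixing enzyme Rubisco, was thus at a high level in these root samples, and its mean was lowest with cellobiose. Its SD was 0.69 with cellobiose and 0.56 in controls (n = 3), and no test of this order is given. In every group its mean was above those of both expansins and above the upper quartile of all probe sets (8.39 to 8.40). Whether green tissue takes part in any value below was not tested. In roots read as bulk tissue, fewer cells of a type and less RNA per cell cannot be told apart.

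In what follows a rise is the mean log2 level with an elicitor minus the mean in controls. The 93 were selected on these rises, so they are given as a description with no test, and the comparisons with control share the same 3 control arrays. Over the 93 the median rise was 13.9-fold with cellobiose (3.80 log2), 16.9-fold with chitin (4.08 log2) and 8.38-fold with OGs (3.07 log2), while the median of all probe sets was -0.03, -0.04 and -0.03. The range was 2.57 to 6.86 with cellobiose, 2.57 to 7.21 with chitin and 2.5 to 5.96 with OGs. At least 16-fold, which is 4 on the log2 scale, was reached by 41 probe sets with cellobiose, by 49 with chitin and by 15 with OGs. All 3 elicitors reached it for 15. With limma and Benjamini-Hochberg adjustment, 93 of the 93 were called higher with cellobiose, where 4.73% of all probe sets were. With chitin 93 were called, against 4.97% of all, and with OGs 90, against 3.18%. The rule used these contrasts, so nothing is read from those counts.

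The 93 were not all silent at rest. Their control means ran from 3.39 to 10.45 with a median of 6.37, near the 6.58 of all probe sets. Their median level reached 10.53 on cellobiose arrays, 10.48 on chitin arrays and 9.61 on OGs arrays, above the upper quartile of all probe sets in those groups (8.40, 8.39 and 8.40). The rule required these levels to be far above the controls, so nothing is read from that. A filter on dim probe sets, at a mean of at least 5 over the 12 arrays, was passed by 93 of the 93. Of all 22746 probe sets, 14880 passed it. That mean includes the elicitor arrays the rule required to be high, so nothing is read from that count. Of the 93, 25 had a control mean under 5. In controls the lower quartile of all probe sets was 4.20 and the median 6.58. Some of the 25 were under that quartile, such as AT5G52760 (3.39), AT1G26420 (3.72) and AT1G26380 (3.95). The size of a rise from so low a level is less certain.

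**Figure D1:**
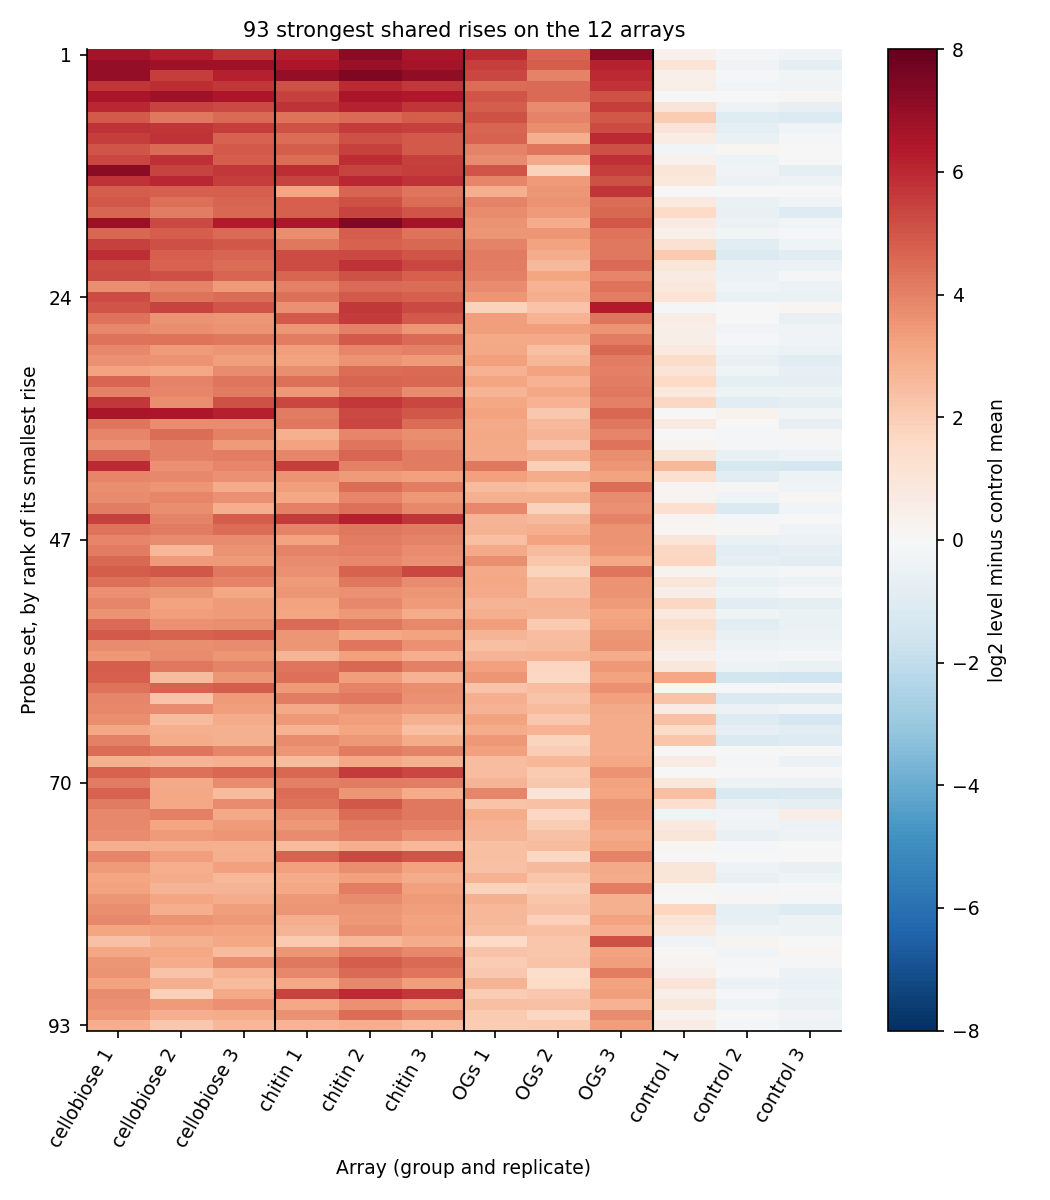
Log2 level minus the control mean for the 93 probe sets (down the page, ranked by the smallest of their 3 rises, largest at the top) on the 12 arrays (across, by group and replicate); red is above and blue below the control mean. Every probe set is red on the elicitor columns. By their medians, OGs replicates 1 and 2 (3.04 and 2.55) are paler than the cellobiose and chitin columns. OGs replicate 3 (3.73) is close to cellobiose replicate 3 (3.75) and chitin replicate 1 (3.78). Control replicate 1 is pale red where the other controls are pale blue for many probe sets.

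The largest rises of a named gene belonged to AT3G02840, which encodes a protein of ARM repeats, a fold that binds other proteins. It read 11.24, 9.73 and 10.44 with cellobiose, 11.23, 11.69 and 11.33 with chitin and 9.52, 8.18 and 10.20 with OGs, against 4.60, 4.04 and 3.98 in controls. Its rises were 6.26, 7.21 and 5.09, and its lowest elicitor array, OGs replicate 2, was far above its highest control. Its control mean of 4.21 was near the lower quartile of all probe sets in controls (4.20), so the exact size of these rises is less certain. Of the unnamed probe sets, 261474_at had rises of 6.24, 6.65 and 5.96, the largest with OGs, and 247215_at had 6.86, 6.68 and 5.51, the largest with cellobiose. The probe sets 261449_at (5.76, 5.59 and 4.93) and 249770_at (6.59, 6.12 and 4.88) followed by their smallest rise. The probe set 249264_s_at, paired with AT5G41740 and AT5G41750, had rises of 4.46, 5.08 and 3.94; it is 1 of 5 of the 93 whose type (_s_at) can read more than 1 transcript.

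Precursors of secreted peptides, which act as signals between cells, were among the 93. AT5G05300 and AT3G10930 belong to the IDA-like family, whose founding member IDA promotes organ shedding. AT5G05300 read 9.84, 9.09 and 9.04 with cellobiose, 10.37, 11.09 and 10.41 with chitin and 8.81, 8.25 and 9.77 with OGs, against 6.05, 5.50 and 4.91 in controls. Each chitin array was above each cellobiose and OGs array, and no elicitor array overlapped the controls. AT3G10930 read 10.47, 9.03 and 9.95 with cellobiose, 10.34, 10.40 and 10.12 with chitin and 9.41, 8.91 and 9.93 with OGs, against 8.01, 5.52 and 5.58 in controls. Here control replicate 1 stood well above the other controls but below all elicitor arrays.

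AT4G28460, the precursor of PIP1, a peptide that amplifies immune responses in Arabidopsis, had the largest differences between chitin and the other elicitors among the named genes. It read 8.97, 7.10 and 8.21 with cellobiose, 10.61, 11.12 and 10.82 with chitin and 7.19, 7.34 and 8.53 with OGs, against 5.67, 5.09 and 4.76 in controls. The chitin arrays were the highest and close together, the cellobiose and OGs arrays overlapped, and the controls were lowest. Its rise with OGs, 2.51, was the smallest of a named gene. At the threshold, 256185_at (2.5047), 246927_s_at (2.5005) and 250415_at (2.5003) lay just inside by their rise with OGs. Just outside lay AT2G23270 (2.49), the precursor of a related PIP peptide with rises of 5.38 with both cellobiose and chitin, then AT3G28580 (2.49), 261394_at (2.48) and 246777_at (2.47), each short with OGs only.

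Genes of recognition and signalling included AT1G66090 and AT1G72920, which encode TIR-domain proteins of the class found in intracellular immune receptors. AT1G72920 read 7.75, 6.42 and 6.93 with cellobiose, 8.01, 8.67 and 8.43 with chitin and 6.29, 5.59 and 8.25 with OGs, against 4.59, 4.20 and 3.68 in controls. The chitin arrays were above all cellobiose arrays, and OGs replicate 3 lay among the chitin arrays while the other OGs arrays did not. AT1G66090 had rises of 3.95, 4.67 and 3.27. AT5G18470, a lectin of the mannose-binding type, was already at 8.86 ± 0.59 in controls and reached 11.65 ± 0.08, 11.70 ± 0.28 and 11.60 ± 0.33 with cellobiose, chitin and OGs (SD, n = 3). Its rises of 2.79, 2.84 and 2.74 were nearly equal.

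Protein turnover was represented by a ubiquitin ligase and by proteases. AT5G37490, a U-box ligase with ARM repeats of the family that tags proteins for degradation, read 9.28, 8.95 and 9.14 with cellobiose, 9.14, 10.11 and 9.88 with chitin and 7.02, 6.62 and 8.13 with OGs, against 4.53, 4.56 and 4.52 in controls. Its controls were nearly identical, and all OGs arrays lay between the controls and the arrays of the other elicitors. AT5G48430, an aspartyl protease, read 10.83, 11.07 and 10.02 with cellobiose, 9.73, 10.38 and 10.21 with chitin and 9.99, 8.16 and 11.26 with OGs, against 5.88, 4.77 and 5.20 in controls. For this gene the OGs arrays spanned the whole range of the other elicitors. AT3G59080, also an aspartyl protease, had rises of 4.21, 4.24 and 3.21, and AT1G24140, a matrix metalloproteinase that cuts proteins outside the cell, had rises of 3.68, 4.50 and 2.71.

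Regulators of transcription with a name here were STZ and a pair of VQ proteins, small partners of WRKY factors. STZ, a zinc finger protein that represses transcription under stress, read 12.54, 10.89 and 12.03 with cellobiose, 12.72, 12.89 and 12.27 with chitin and 11.52, 10.90 and 11.90 with OGs, against 10.91, 7.50 and 7.51 in controls. Control replicate 1 was above cellobiose replicate 2 and OGs replicate 2, so its groups overlapped; without that control the rises of 3.18, 3.99 and 2.80 became 4.32, 5.12 and 3.94. AT2G22880, a VQ gene, read 12.67, 12.10 and 12.36 with cellobiose, 12.50, 12.83 and 12.19 with chitin and 11.68, 11.28 and 12.20 with OGs, against 8.50, 7.18 and 7.46 in controls. Its elicitor arrays lay together far above the controls. AT4G20000, the other VQ gene, had rises of 4.34, 4.09 and 3.08.

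Membrane and metal-binding proteins formed a further group. AT5G64870, a flotillin-like protein of membrane microdomains, read 9.93, 9.06 and 9.19 with cellobiose, 9.13, 9.64 and 9.54 with chitin and 8.25, 7.61 and 8.84 with OGs, against 5.81, 4.19 and 4.22 in controls. The OGs arrays were below all arrays of the other elicitors, and control replicate 1 was the highest control. AT5G52750 and AT5G52760 encode proteins with a heavy metal-associated domain and are neighbours on chromosome 5 with no annotated gene between them. AT5G52750 read 10.72, 10.97 and 10.47 with cellobiose, 10.37, 10.99 and 10.74 with chitin and 8.88, 8.35 and 10.02 with OGs, against 5.81, 4.51 and 4.55 in controls. AT5G52760 read 8.25, 8.37 and 7.62 with cellobiose, 7.04, 8.13 and 8.70 with chitin and 6.40, 5.14 and 7.66 with OGs, against 3.68, 3.18 and 3.31 in controls. Both neighbours were lowest with OGs replicate 2 among the elicitor arrays. The ankyrin repeat genes AT2G24600 (5.19, 4.49 and 3.80) and AT1G14480 (3.53, 3.49 and 2.97) and the cytochrome b561 gene AT5G35735 (4.16, 3.80 and 3.00), whose family carries electrons across membranes, had their smallest rise with OGs. AT5G19240, a glycoprotein with a GPI anchor that holds it at the cell surface, differed little between elicitors, with rises of 2.95, 2.77 and 2.91 over a control mean of 9.32 ± 1.3 (SD, n = 3).

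Oxidative enzymes included 3 berberine bridge enzyme-like genes, a family of flavin oxidases that act on wall oligosaccharides or on defence metabolites. AT1G26380, an elicitor marker whose enzyme makes an indole defence compound, read 8.98, 9.37 and 8.97 with cellobiose, 7.62, 9.59 and 9.21 with chitin and 5.76, 6.26 and 10.31 with OGs, against 3.88, 3.88 and 4.08 in controls. OGs replicate 3 was the highest of all its arrays and the other OGs arrays were below every cellobiose and chitin array. Its rise with OGs was 3.50 over 3 arrays, 2.06 without OGs replicate 3 and 4.34 without OGs replicate 1, and the rises with cellobiose and chitin were 5.16 and 4.86. AT1G26420, also on chromosome 1 with 3 genes between them, read 8.58, 8.53 and 8.51 with cellobiose, 6.86, 8.40 and 7.99 with chitin and 6.59, 7.25 and 9.41 with OGs, against 3.74, 3.69 and 3.72 in controls. Its rise with OGs of 4.04 was 3.21 without OGs replicate 3. AT1G30700, the other gene of this family, had rises of 4.12, 3.49 and 3.24. AT5G39580, a class III peroxidase of the kind that uses hydrogen peroxide in the wall, read 11.77, 11.69 and 11.45 with cellobiose, 11.29, 11.67 and 11.48 with chitin and 11.39, 10.76 and 12.20 with OGs, against 9.55, 7.48 and 7.22 in controls. The rises of this peroxidase, 3.55, 3.39 and 3.36, were nearly equal.

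The other enzymes were of several kinds. The methyltransferase genes AT1G55450 (3.72, 3.70 and 3.44) and AT3G54150 (3.77, 3.82 and 2.85), the oxygenase gene AT2G36690 (3.63, 4.14 and 2.70), the GDSL lipase gene AT1G28600 (3.65, 3.21 and 2.60) and the N-acetyltransferase gene AT2G32020 (3.23, 3.20 and 2.59) are given with cellobiose, chitin and OGs in that order. Among 3 genes of the C1 domain, a cysteine-rich zinc-binding fold, AT2G44370 had rises of 3.71, 3.79 and 3.22 and AT2G42060 had 2.87, 3.50 and 2.63. AT5G40590 was 1 of the only 2 probe sets of the 93 with the largest rise with OGs: it read 8.89, 9.40 and 9.66 with cellobiose, 8.67, 9.24 and 9.51 with chitin and 8.18, 8.77 and 11.67 with OGs, against 6.32, 6.79 and 6.60 in controls. That order rested on OGs replicate 3, without which the rise with OGs was 1.91 in place of 2.97, against 2.75 with cellobiose and 2.57 with chitin. The other such probe set was 263783_at, with rises of 4.55, 4.59 and 4.68. Its order lay within the error: cellobiose minus OGs was -0.13 ± 0.58 and chitin minus OGs -0.09 ± 0.58 (SE). Its OGs arrays read 10.98, 9.88 and 10.83.

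The remaining 11 named genes have no role given here. AT5G28610 had the largest rises of them, 5.57, 5.87 and 4.73, and AT1G49000 the smallest with cellobiose and OGs, 2.91 and 2.57. AT5G28610 read 11.32, 10.70 and 10.61 with cellobiose, 11.06, 11.43 and 11.03 with chitin and 10.17, 9.10 and 10.84 with OGs, against 6.35, 4.90 and 4.66 in controls. AT1G51920 (4.82, 5.07 and 4.46) and AT1G58420 (4.81, 5.44 and 3.75) followed it. AT4G28085 had rises of 4.35, 4.29 and 2.82, and AT2G25735 had 3.98, 4.21 and 2.91. For AT1G05575 they were 3.58, 3.82 and 2.69, and for AT1G36640 3.40, 3.97 and 3.14.

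**Figure D2:**
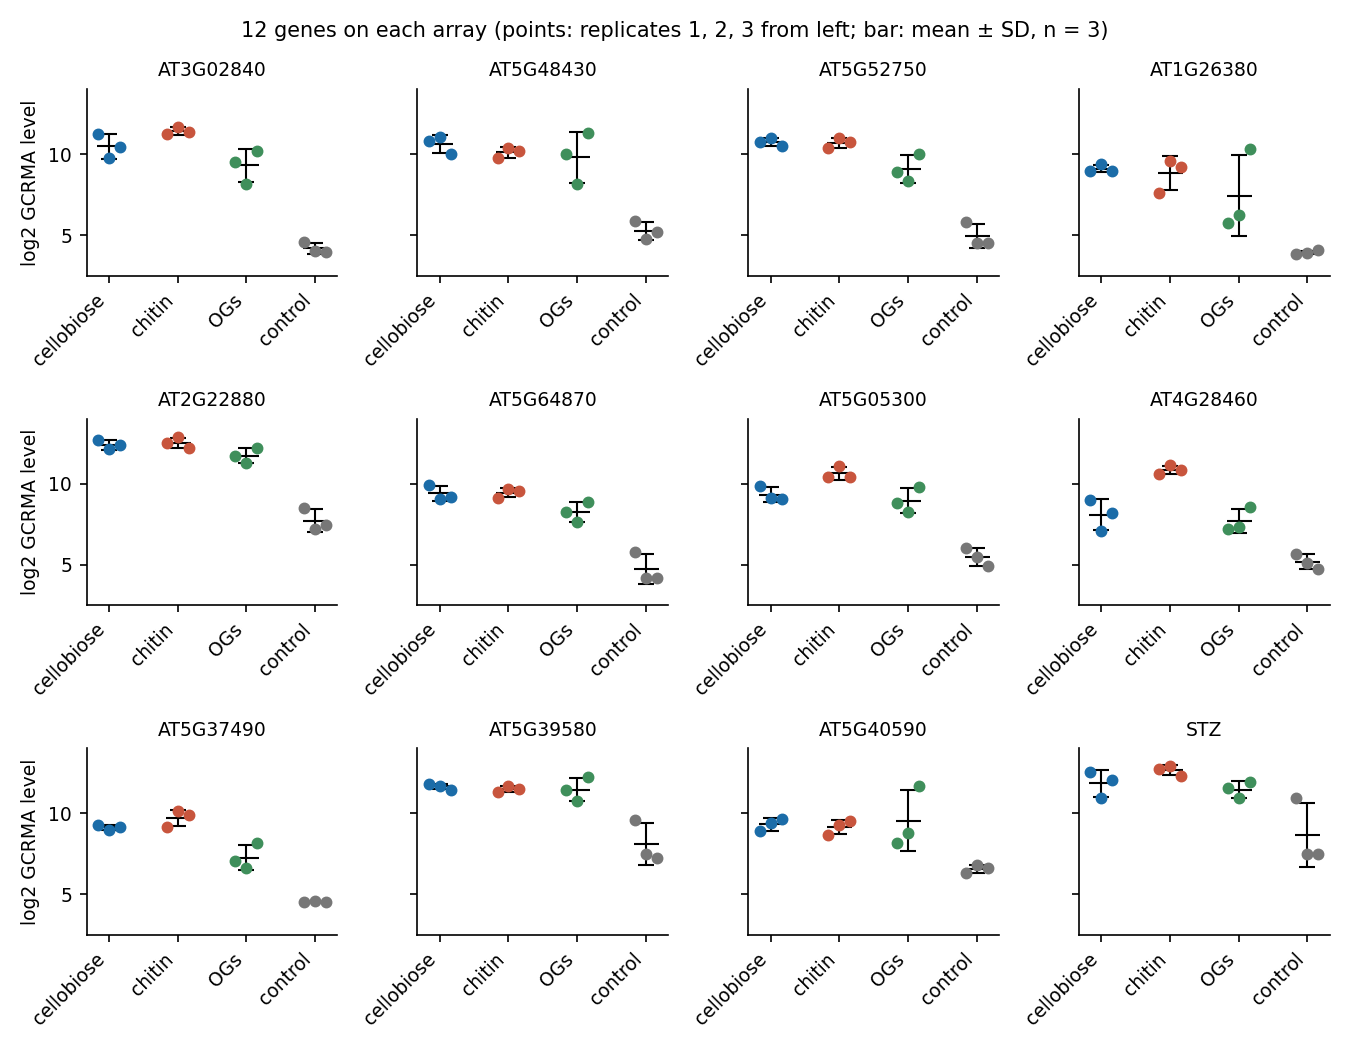
Log2 level of 12 named genes (one panel each) by group, with a point for each of replicates 1, 2 and 3 from left to right and a bar for the mean ± SD (n = 3). Elicitor points lie above the control points in every panel except that of STZ, where control replicate 1 overlaps them, and OGs replicate 3 stands above the other OGs points most clearly for AT1G26380 and AT5G40590.

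Rises with OGs were usually the smallest of the 3. They were the smallest for 87 of the 93 probe sets, which is 93.5%, while cellobiose was smallest for 2 and chitin for 4. Among 541 other probe sets called higher with all 3 elicitors, OGs gave the smallest rise in 400, or 73.9%, and among all probe sets in 29.2%. The rise with OGs was between 55.7% and 112% of the mean of the rises with cellobiose and chitin on the log2 scale, with a median of 78.5%. The largest rise was with chitin for 52 and with cellobiose for 39. The rule set a floor under each of these rises, and the group that was most often the smallest lay nearest to it.

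Differences between elicitors were tested in the same fit over all probe sets. They are contrasts the rule did not use, but they compare group means that the rule did use, and their error comes from all 4 groups, controls included. Chitin minus OGs was above 0 for 88 of the 93, against 46.7% of all probe sets. Over the 93 the median was 0.89 and the range -0.40 to 3.16. At an adjusted p under 0.05 (limma) 1 of the 93 was called, where 0.106% of all probe sets were called. That gene was AT5G37490, the U-box ligase, whose level was higher with chitin by 2.45 ± 0.32 on the log2 scale (SE; 95% interval 1.72 to 3.19; adjusted p = 0.03894, limma). The call was lost with an ordinary test per probe set (adjusted p = 0.3685). It was also lost with poly-A spike-in scaling and an ordinary test together (adjusted p = 0.9617), where the difference was 2.44. The effect of the scaling alone on the call was not tested. With only both compared groups fitted the call was lost too (limma, adjusted p = 0.3883), as it was without any single array except cellobiose replicate 2 or OGs replicate 3. AT4G28460, the PIP1 precursor, had the largest difference, 3.16 ± 0.46, and did not pass (95% interval 2.11 to 4.21; adjusted p = 0.0580, limma), but passed with no replicate block (adjusted p = 0.03604) and with an intensity trend in the variance (adjusted p = 0.03979). At an unadjusted p under 0.05, 42 were higher with chitin and 0 higher with OGs, where 6.36% of all probe sets passed in either direction. With no replicate block 4 of the 93 were called, where 0.141% of all probe sets were, and with an intensity trend 4, where 0.163% were. Without cellobiose replicate 2 there were 3, against 0.154% of all, and without OGs replicate 3 there were 14, against 0.462% of all (105 probe sets, against 24 with all arrays), and these included AT3G02840, AT4G28460, AT5G05300, AT1G26380, AT1G49000, AT1G72920 and AT4G20000.

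Cellobiose minus OGs was above 0 for 90 of the 93, against 47.1% of all probe sets. Over the 93 the median was 0.79 and the range -0.23 to 3.11. By limma 0 of the 93 were called, where 0.044% of all probe sets were, and 39 had an unadjusted p under 0.05, all higher with cellobiose, where 5.44% of all probe sets passed. The largest difference was that of 260406_at, 3.11 ± 0.51 (SE; 95% interval 1.97 to 4.25; adjusted p = 0.1178, limma). AT4G20000, the VQ gene, had 1.26 ± 0.20 (95% interval 0.80 to 1.71; adjusted p = 0.1107, limma), the smallest p of a named gene. AT5G37490 was at 1.87 ± 0.32 (95% interval 1.14 to 2.60; adjusted p = 0.1539, limma). With no replicate block 249770_at was called (adjusted p = 0.0442), where 0.0835% of all probe sets were. Without chitin replicate 1 there was 1 call, against 0.0176% of all, and without control replicate 1 there was 1, against 0.0308%. Without OGs replicate 3 there were 6, against 0.127% of all, and these included AT4G20000, AT5G37490 and AT1G26380.

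Cellobiose minus chitin was split, with 40 of the 93 above 0 and 53 below, where 50.1% of all probe sets were above 0. Over the 93 the median was -0.07 and the range -2.76 to 1.64. After poly-A spike-in scaling the median was 0.09, so its sign depends on the scaling. By limma 0 were called, where 0.0176% of all probe sets were, and 11 had an unadjusted p under 0.05, where 5.68% of all probe sets did. Of those 11, 4 were higher with cellobiose and 7 with chitin. AT4G28460 had the largest difference, -2.76 ± 0.46 (95% interval -3.81 to -1.70; adjusted p = 0.3232, limma). AT5G05300, the IDA-like precursor, was at -1.30 ± 0.42 (95% interval -2.25 to -0.35; adjusted p = 0.8238, limma).

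The spread of the 93 limited these tests. Their median SE for a difference between elicitors was 0.43 on the log2 scale, against 0.109 over all probe sets. Their median SD between replicates was 0.30 with cellobiose, 0.32 with chitin, 0.68 with OGs and 0.69 in controls, against 0.116, 0.133, 0.123 and 0.115 over all probe sets. A difference that missed the threshold does not show that the elicitors acted alike on a gene: for AT5G39580, the peroxidase, chitin minus OGs was 0.03 with a 95% interval from -1.15 to 1.21.

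**Figure D3:**
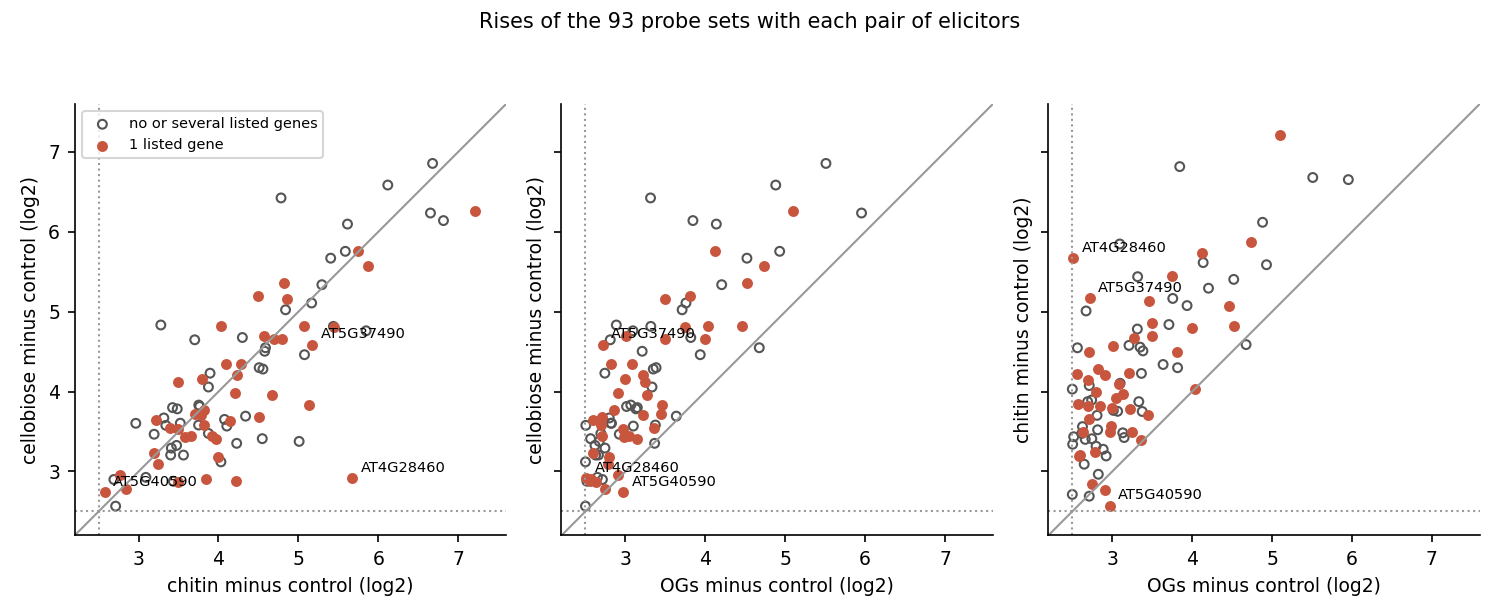
Rise with one elicitor against the rise with another (log2, group mean minus control mean) for the 93 probe sets; filled points have 1 listed gene, the solid line marks equal rises and the dotted lines the threshold of 2.5. Points straddle the line for cellobiose and chitin and lie mostly above it where OGs are on the horizontal axis, and AT4G28460 stands apart towards chitin.

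**Figure D4:**
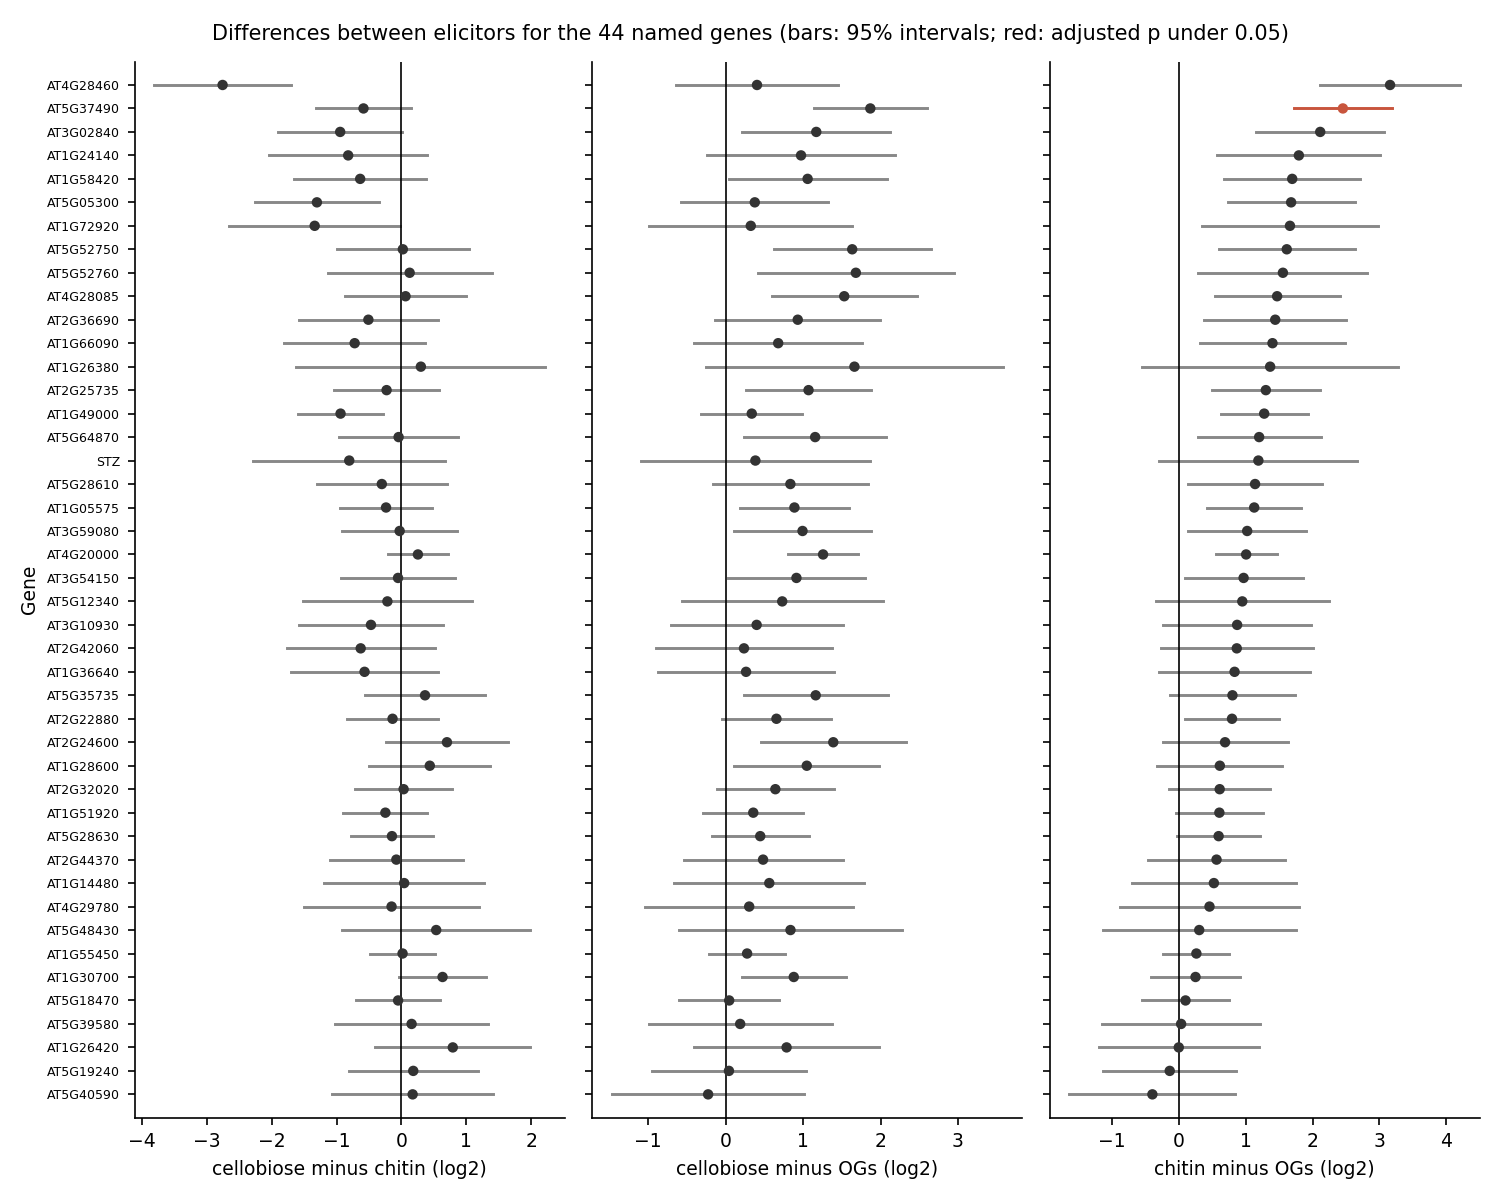
Difference between elicitors for the 44 named genes (points, log2) with 95% intervals from the limma fit (bars), ordered down the page by chitin minus OGs. The interval coloured red is the only one with an adjusted p under 0.05, that of AT5G37490 for chitin minus OGs, and most points in the panels with OGs lie right of 0.

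The spread had a shape that the 93 shared. The median over the 93 of the level minus the control mean was 4.16, 3.81 and 3.75 on the cellobiose arrays, 3.78, 4.40 and 4.03 on the chitin arrays and 3.04, 2.55 and 3.73 on the OGs arrays, against 0.79, -0.37 and -0.39 on the control arrays. OGs replicate 3 was above its group mean in 93 of the 93 and OGs replicate 2 in 1 of the 93, while over all probe sets these shares were 46.2% and 54.4%. OGs replicate 3 was the highest OGs array in 81, against 32.1% of all probe sets, and chitin replicate 2 was the highest chitin array in 79, against 35.7%. Cellobiose replicate 1 was the highest cellobiose array in 68, against 29.0% of all. The replicate number itself, which the rule did not use, was tested with limma's moderated F test: 0 of the 93 were called at an adjusted p under 0.05, where 0.897% of all probe sets were, and 9 had an unadjusted p under 0.05, where 8.27% did. The smallest adjusted p were those of 266821_at (0.07446) and AT5G12340 (0.1419), and without OGs replicate 3 there were 3 calls, where 1.08% of all probe sets were called.

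Among controls, replicate 1 was the highest in 81 of the 93, against 33.3% of all probe sets. It exceeded the mean of the other controls by more than 1 on the log2 scale in 52, against 1.95% of all, and 19 of the 114 probe sets on the array that exceeded it by more than 2 were among the 93. The difference was largest for 261892_at, at 4.67, then for 266821_at (4.02), AT5G12340 (3.59), AT4G29780 (3.51) and STZ (3.40), and 17 of the 93 were within 0.3 in either direction. AT5G12340 read 11.62, 9.97 and 9.44 with cellobiose, 11.38, 10.42 and 9.89 with chitin and 10.82, 7.95 and 10.08 with OGs, against 9.29, 5.66 and 5.75 in controls. On this gene replicate 1 was the highest array in every group. The Affymetrix control probe sets had a median of 8.63 on control replicate 1, the highest of the 12 arrays; its part in these values was not tested.

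All 9 elicitor arrays lay above all 3 controls for 87 of the 93, where 5.1% of all probe sets did; the rule used these group means, so nothing is read from that count. The others were 266821_at, 261892_at, STZ, AT4G29780, 253485_at and AT5G12340, and without control replicate 1 the count was 93, where 8.17% of all probe sets passed. Without that control the median rises were 4.34, 4.63 and 3.60 with cellobiose, chitin and OGs, and the rule chose 139 probe sets, of which 92 were among the 93. Without OGs replicate 3 the median rise with OGs was 2.75, the rule chose 67 and OGs gave the smallest rise in 92 of the 93. Without OGs replicate 2 the median rise with OGs was 3.37, the rule chose 121 and OGs gave the smallest rise in 72. With each of the 12 arrays left out in turn, 56 of the 93 met the rule every time, and AT3G02840, AT5G48430, AT5G52750, AT2G22880, AT5G64870 and AT5G05300 were among these.

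**Figure D5:**
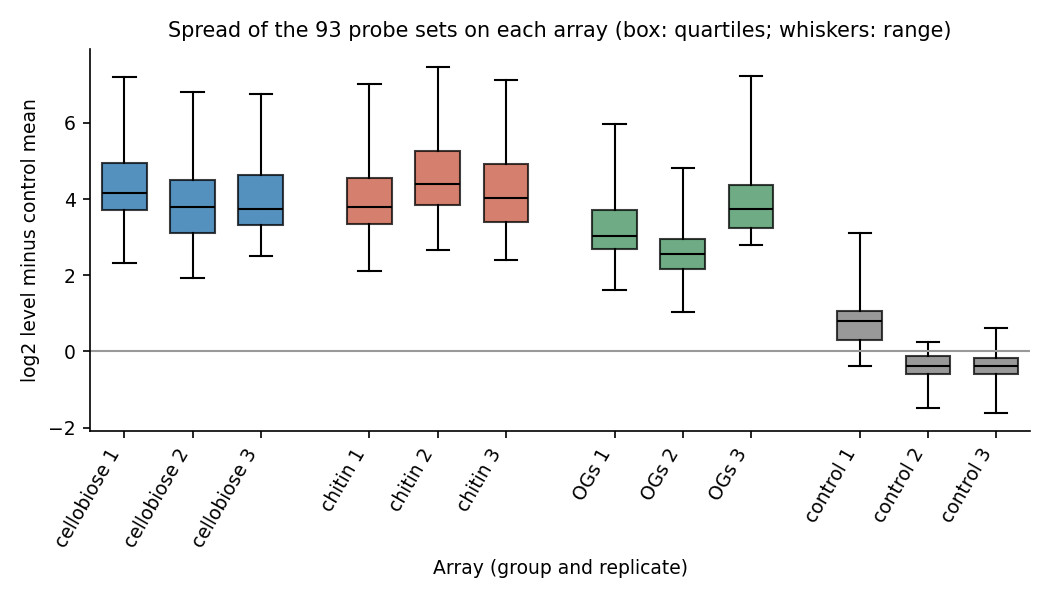
Log2 level minus the control mean over the 93 probe sets on each array (boxes: quartiles with the median; whiskers: lowest and highest). The OGs medians lie at 3.04, 2.55 and 3.73, and the control medians at 0.79, -0.37 and -0.39, so that OGs replicate 2 and control replicate 1 are the nearest to each other between those groups.

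Chromosome positions, which the rule did not use, were looked up for the 44 named genes in the RefSeq annotation of TAIR10.1. Chromosomes 1 to 5 held 15, 7, 4, 4 and 14 of them, or 34.1%, 15.9%, 9.09%, 9.09% and 31.8%, against 25.7%, 16.4%, 20.4%, 14.6% and 22.4% of all probe sets with 1 gene. AT5G28610 and AT5G28630 have 12 annotated genes between them, of which 2 are coding. Of 88 adjacent coding genes (the nearest on each side), 44 had a named probe set, 2 of these were AT5G52750 and AT5G52760 themselves, and the other 42 did not meet the rule.

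Of those 42 adjacent genes, 7 were higher with cellobiose, or 16.7%, against 3.89% of all probe sets with 1 gene outside the rule (limma, adjusted p under 0.05). With chitin 5 were higher, or 11.9%, against 4.21%, and with OGs 4, or 9.52%, against 2.57%, while 0 were lower with any elicitor. At an unadjusted p under 0.05, 10, 9 and 9 of the 42 were higher with cellobiose, chitin and OGs, and 3, 2 and 0 were lower. The medians of the 42 were 0.06, 0.04 and 0.03 on the log2 scale. With 1 array left out in turn the counts ran from 4 to 8 with cellobiose, from 2 to 6 with chitin and from 1 to 6 with OGs, and the share over all probe sets with 1 gene outside the rule moved with them. For OGs there was 1 without control replicate 2, or 2.38% against 0.713%, and 1 without control replicate 3, or 2.38% against 0.483%. AT2G32030, an N-acetyltransferase gene beside its relative AT2G32020, was higher by 2.88 ± 0.32, 3.16 ± 0.32 and 1.94 ± 0.32 with cellobiose, chitin and OGs (SE; adjusted p = 0.000829, 0.000504 and 0.01269, limma). AT1G58410, beside AT1G58420, was higher by 1.1 ± 0.13, 1.09 ± 0.13 and 0.96 ± 0.13 (SE; adjusted p = 0.001072, 0.000983 and 0.0053, limma). AT1G51915, beside AT1G51920, was higher by 2.88 ± 0.60 with cellobiose and 3.43 ± 0.60 with chitin (SE; adjusted p = 0.0181 and 0.0074, limma), and its 2.22 ± 0.60 with OGs did not pass (adjusted p = 0.08205, limma). Cross-hybridization between near-identical neighbours was not tested.

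Other genes of the pathway were taken from 8 lists with 106 genes, of which 23 had a named probe set and 16 of these did not meet the rule. With each elicitor 7 of the 16 were higher. Of all probe sets with 1 gene outside the rule, 3.89%, 4.21% and 2.57% were higher with cellobiose, chitin and OGs. Also with each, 1 of the 16 was lower, where 3.64%, 3.47% and 0.706% of those probe sets were lower. The list of early elicitor markers supplied 4 of the 7, namely PUB22, PUB23, PUB24 and BIK1, all 4 of its genes outside the rule. Those genes were listed as known elicitor markers, so the count over the 16 is not read as a response of the whole pathway. Of the receptor list, 3 of 13 genes had a named probe set, namely EFR, which binds bacterial EF-Tu, AT1G56145, a receptor kinase for cello-oligomers, and FER, a receptor kinase of wall sensing. By limma 0 of the 3 passed with any elicitor, and at an unadjusted p under 0.05 only 1, FER, was higher with each. EFR averaged 4.06, 4.12 and 4.02 with cellobiose, chitin and OGs and 3.97 in controls. Those levels were under the lower quartile of all probe sets (4.21, 4.24, 4.21 and 4.20), so its missing call says little. FER differed from controls by 0.30 ± 0.11, 0.27 ± 0.11 and 0.30 ± 0.11 with cellobiose, chitin and OGs (SE; adjusted p = 0.137, 0.170 and 0.192, limma). AT1G56145 was at -0.05, -0.11 and -0.01. Among calcium genes 2, 1 and 2 of 5 were higher with cellobiose, chitin and OGs. The gene that was lower, AT2G28200 of the C2H2 zinc finger list, fell by 1.4 ± 0.28, 1.77 ± 0.28 and 1.36 ± 0.28 with cellobiose, chitin and OGs (SE; adjusted p = 0.01598, 0.004641 and 0.02981, limma). In the same list AT3G53600, a relative of STZ, was higher with chitin by 2.19 ± 0.34 (SE; adjusted p = 0.004238, limma), and did not pass with cellobiose (adjusted p = 0.0808, limma) or OGs (adjusted p = 0.1145, limma). The difference between chitin and the others was itself not called for this gene (cellobiose minus chitin -1.05 ± 0.34 and chitin minus OGs 1.05 ± 0.34, SE; adjusted p = 0.8238 and 0.5732, limma). WRKY6, a transcription factor of senescence and defence, was the only WRKY gene outside the rule with a named probe set and was higher with all 3, by 1.41, 1.69 and 0.99. The ERF gene ORA47 passed with none, adjusted or at an unadjusted p under 0.05, and the jasmonate and ethylene lists had no gene with a named probe set.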

How the data were processed

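The deposited table holds log2 probe set values that the authors made with GCRMA, per the series' design text. Affymetrix Expression Console is named in the submitters' processing notes without a version or role. The 64 AFFX rows of 22810 were kept apart, and precision is limited by the number of arrays, which carry no depth. Gene names came from the GEO annotation of the platform, and loci were matched to RefSeq TAIR10.1. Every probe set of the 93 paired with 1 gene was named, besides the rule's edge, list genes, adjacent genes and tissue markers. The adjacent genes were chosen after the data were seen. The members and lists were chosen with earlier results of these data known.

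Differences were tested with limma 3.58.1 in R 4.3.3 (treatment and replicate number as a block, 12 arrays, eBayes, 6 residual and 3.09 prior degrees of freedom, two-sided, Benjamini-Hochberg over 22746 probe sets). The block follows the design text's ratios per sample pair. The scripts were tested on simulated data. The tested alternatives left out the block, moderation, the other groups, dim probe sets or 1 array, or changed the scaling; scaling to 24 poly-A spike-in probe sets used ordinary tests. Promoter motifs were planned and not searched, since no sequence was used here.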

Additional observations from a re-analysis of the deposited data

Results flagged for a closer look

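AT5G37490, the U-box ubiquitin ligase gene, was flagged because its level differed between chitin and OGs by a test of that difference, at 2.45 on the log2 scale (chitin minus OGs; limma, adjusted p = 0.03894). Each chitin array was above each OGs array. Over the alternatives the adjusted p ran from 0.01045, without OGs replicate 3, to 0.9617, with spike-in scaling and an ordinary test, and the value ran from 2.09 to 2.86.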

How the results depend on the processing

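For chitin minus OGs, the number of the 93 probe sets called was 1. It was 4 with no replicate block, 4 with an intensity trend and 0 with only the compared groups fitted. With an ordinary test it was 0, without or with spike-in scaling, and with 1 array left out it was 0 to 14. For cellobiose minus OGs it was 0, and 1 with no replicate block and 0 to 6 with 1 array left out. For cellobiose minus chitin it was 0 under every alternative run, and for the replicate number 0 under every alternative except with 1 array left out, where it ran from 0 to 3. The cause of these shifts was not tested. The rule chose 165 probe sets at a threshold of 2 and 50 at 3, 119 after spike-in scaling, 94 after median centring and 87 by the median of paired differences, of which 77 were among the 93. With 1 array left out it chose 67 to 139.

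Same-numbered arrays of different groups had deviations from their group means that correlated at -0.17 to 0.59 over all probe sets, with 11 of 18 above 0.1. The 6 pairs of replicate 1 lay at 0.30 to 0.59, and over the 93 probe sets alone 15 of 18 were above 0.1, up to 0.72. Every pair that did not exceed 0.1 over all probe sets was of another replicate number. By limma's moderated F test the replicate number was called for 204 of the 22746 probe sets and for 0 of the 93 (adjusted p under 0.05). The arrays of replicate 1 thus shared part of their deviations over all probe sets. Pairs of the other replicate numbers ran from -0.17 to 0.41, so such sharing is not shown for every number. No correlation between arrays of different numbers is given for comparison. Whether every number marks paired samples was not tested, and the block rests on the design text. Without the block the call of AT5G37490 remained (adjusted p = 0.02943).

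Spike-in scaling shifted the median of all probe sets to 0.34, 0.17 and 0.20 with cellobiose, chitin and OGs against control, and the medians of the 93 to 4.18, 4.28 and 3.29. Precision was limited by 3 arrays a group, with a median SE of 0.43 between elicitors.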
